A study of Homo sapiens with 24 samples.

Results

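The genes described here are 10 that mark or regulate epithelial cells: the adhesion genes CDH1 and EPCAM, the keratins KRT8, KRT18 and KRT19, the tight junction genes CLDN3, CLDN4 and LSR, the desmosome gene DSP and the transcription factor gene SNAI2. They are 10 of the 11963 genes that could be named on the arrays. Each was taken from probe sets annotated to that gene alone, by the probe set with the highest mean over the 24 arrays. CDH1 and CLDN3 have 2 such probe sets and the other 8 genes have 1. All 10 are accounted for below: 9 of them passed the filter on signal and were tested among 6782 genes, and KRT19, which lay near the floor of the scale in most groups, did not.

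The cells were LNCaP, an established human prostate cancer line that responds to androgen. They received 1 of 3 microRNAs (miR-130a, miR-203 and miR-205) or, as control, a scramble microRNA, each from 2.5 µg of plasmid introduced by nucleofection, a form of electroporation. From each transfection, RNA was taken by co-immunoprecipitation with an antibody against AGO2 and also as total RNA, which gave 8 groups: AGO2-bound RNA after miR-130a, miR-203, miR-205 and scramble, and total RNA after the same 4 transfections. Each group had 3 Affymetrix arrays labelled as biological replicates, with 2 µg of RNA per array. All groups thus share the cell line, the nucleofection and a plasmid, and how much of each microRNA the cells made was not analysed here.

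A microRNA guides an Argonaute protein such as AGO2 to transcripts that pair with it, mostly through its seed at bases 2 to 8, and such transcripts are repressed or broken down. RNA that comes down with AGO2 is therefore used to find transcripts on which the microRNA acts, and total RNA to find changes in transcript level. Epithelial cells are held together by adherens junctions built on E-cadherin (CDH1), by tight junctions built on claudins and by desmosomes that anchor keratin filaments through desmoplakin (DSP). In the epithelial to mesenchymal transition (EMT), transcription factors such as SLUG, the product of SNAI2, repress CDH1 and other junction genes.

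The mature microRNAs below are shown because the comparisons turn on what AGO2 carries after each is supplied, and their seeds differ. They are the RefSeq sequences of GRCh38.p14, with seed bases 2 to 8 in capitals. The labels do not state which arm the plasmids produced, and the arms shown are those by which the microRNAs are usually meant. The first lies at chr14:104117469-104117490 on the plus strand and the second at chr1:209432166-209432187 on the plus strand.
hsa-miR-203a-3p: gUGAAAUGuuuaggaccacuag
hsa-miR-205-5p: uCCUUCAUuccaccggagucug
The letters of a transcript that would pair with the whole seed are CAUUUCA for the first and AUGAAGG for the second.

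The values are log2 expression as the authors deposited them, between 2.345 and 14.487, and 39.87% to 41.48% of the 22277 probe sets lay within 0.05 of the lowest value on each array. The floor itself was the same within the miR-130a arrays, within the miR-203 arrays and within the 12 arrays of miR-205 and scramble, and differed slightly between these 3 sets. Comparisons of miR-130a or miR-203 with scramble therefore run between sets of arrays that appear to have been normalized apart, and comparisons of miR-205 with scramble do not. The difference between 3′ and 5′ control probe sets of ACTB, a measure of RNA integrity, averaged 2.55 ± 0.30 in AGO2-bound RNA of miR-130a, 2.68 ± 0.34 of miR-203, 3.45 ± 0.43 of miR-205 and 3.40 ± 0.45 of scramble (log2, SD, n = 3 each). The ACTB difference thus moved with the same 2 comparisons. The same difference of GAPDH was 1.20, 1.27 and 1.30 on the AGO2-bound arrays of miR-130a, close to 1.23, 1.57 and 1.41 on those of scramble. On those of miR-203 it was lower, at 0.60, 0.89 and 0.82. The part of the floor sets or of RNA integrity in the results was not tested. In total RNA the ACTB difference averaged 2.07 to 2.24. Total scramble replicate 1 was the highest at 2.45, against 2.12 and 2.10 on the other scramble arrays. Total miR-203 replicate 2 came close to it, at 2.41. By GAPDH total scramble replicate 1 lay at 0.99, against 0.68 and 0.64 on the other scramble arrays. Of 8 markers of prostate luminal cells 6 were measured, and 5 of these, among them KLK3 and HOXB13, had a median of at least 5 in total RNA. Of 5 measured basal markers 3 (KRT5, KRT15 and CDH3) lay at the floor on all 12 total RNA arrays, KRT14 on 11 of them and DST on 0, with a median of 3.02. The 3 measured leukocyte markers lay at the floor on all 12. The labels name no separate cultures or days, so what the p-values take as error is the spread among arrays of a group.

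In AGO2-bound RNA, several of the 9 tested genes changed after each microRNA, and the largest differences were rises. LSR and KRT8 rose about 7-fold after miR-205, and CLDN3 rose about 5-fold after miR-203. KRT18 rose after both. EPCAM fell after all 3 microRNAs, and SNAI2 fell after miR-130a and miR-205. After miR-130a 5 of the 9 genes fell, where 38.5% of all tested genes passed the threshold, 18.6% rising and 19.9% falling (limma, Benjamini-Hochberg adjusted p under 0.05). After miR-203 3 rose and 2 fell, where 51.4% of all tested genes passed, 22.7% rising and 28.8% falling. After miR-205 4 rose and 2 fell, where 44% of all passed, 20.4% rising and 23.7% falling. Nothing is read from these counts about the 9 genes as a group. In total RNA, 2 of 9 changed after miR-130a (29.3% of all genes), 2 after miR-203 (39.6%) and 1 after miR-205 (23.5%), each by less than 1.5-fold. The median absolute difference of the 9 genes in AGO2-bound RNA was 0.44 (miR-130a), 0.60 (miR-203) and 0.74 (miR-205) on the log2 scale, beside 0.35, 0.47 and 0.39 over all tested genes. In total RNA the same median was 0.14, 0.28 and 0.22, beside 0.21, 0.25 and 0.18 over all tested genes.

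**Figure D1:**
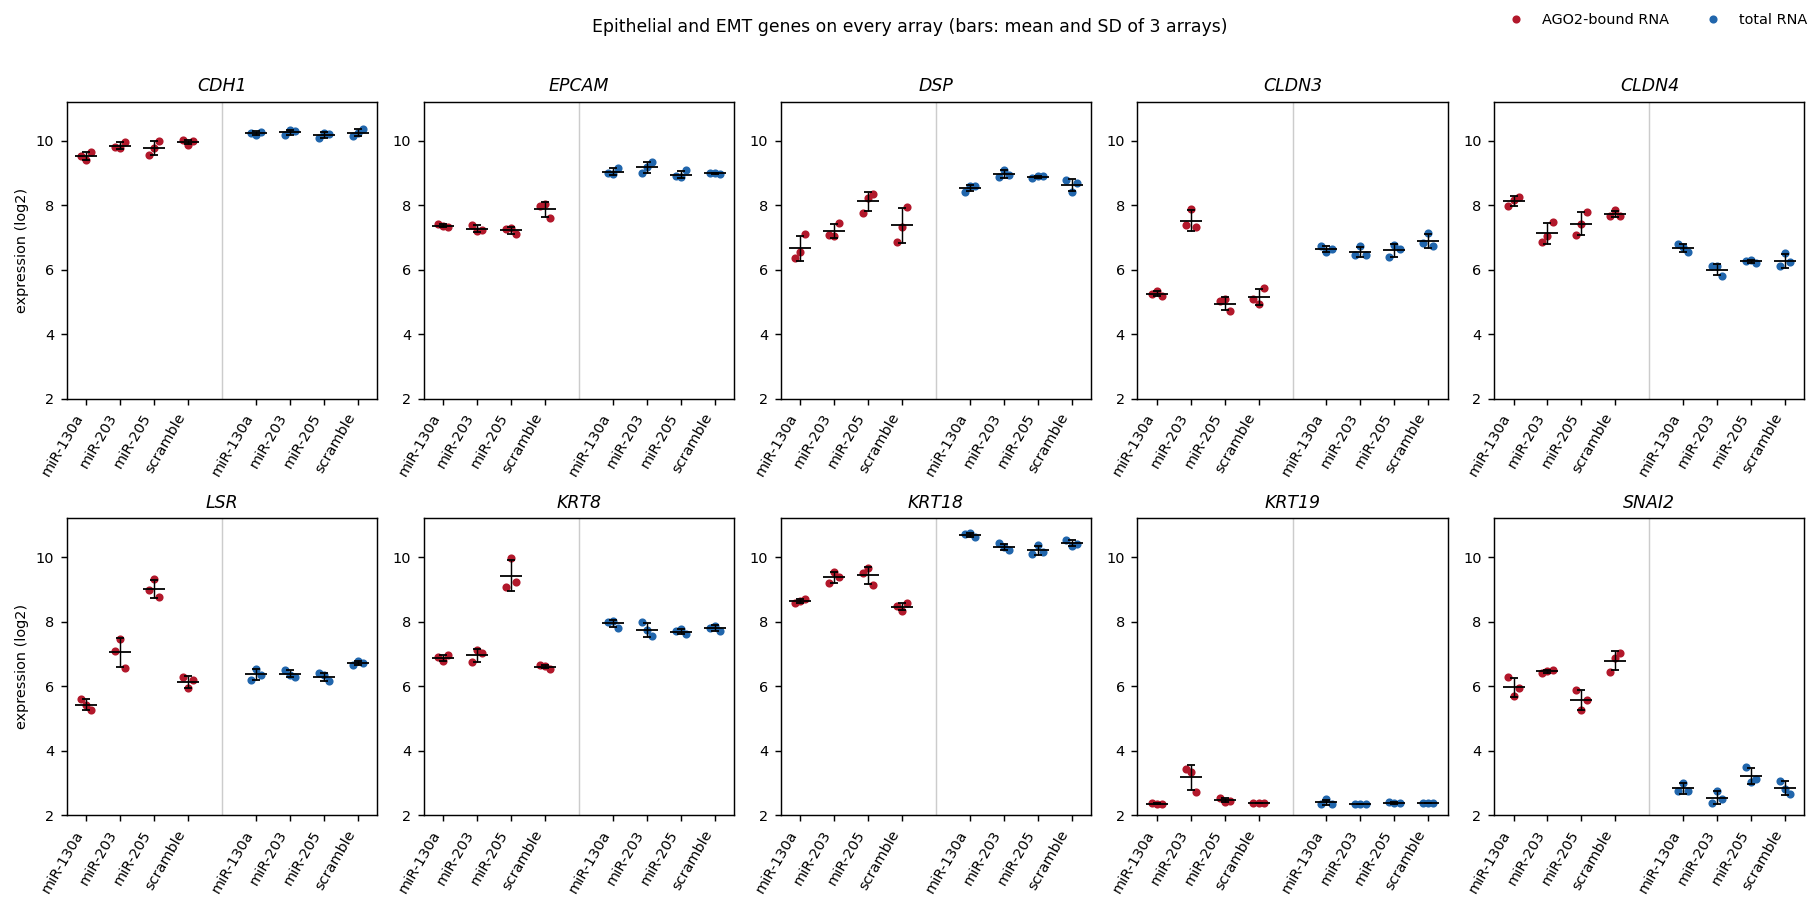
Log2 expression of each of the 10 genes (1 panel each, vertical axis) on every array, in AGO2-bound RNA on the left of each panel and total RNA on the right, by transfection (horizontal axis). Points are single arrays and bars are the mean and SD of 3 arrays; KRT8 after miR-205 (mean 9.43) and LSR after miR-205 (mean 9.02) stand above the other AGO2-bound groups, CLDN3 does so after miR-203 (mean 7.52), and SNAI2 is high in AGO2-bound RNA and low in total RNA in every transfection.

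CDH1 encodes E-cadherin, the adhesion protein of adherens junctions, and lies on chr16:68737292-68835537 (GRCh38.p14). In total RNA its 12 arrays lay between 10.08 and 10.35, and no difference from scramble passed the test. In AGO2-bound RNA it measured 9.51, 9.41 and 9.64 after miR-130a, against 10.02, 9.88 and 9.98 after scramble. All 3 miR-130a arrays lay below all 3 scramble arrays, and CDH1 fell by 0.44 ± 0.14 on the log2 scale (SE, adjusted p = 0.023). After miR-203 it averaged 9.84 ± 0.10 and after miR-205 9.77 ± 0.22, against 9.96 ± 0.07 after scramble (SD, n = 3 each), and neither difference passed the test. The order of the 4 means in AGO2-bound RNA was scramble, miR-203, miR-205 and miR-130a, and no neighbours in that order differed by the test. The call after miR-130a was lost when miR-130a replicate 1 or 2 or scramble replicate 1 or 3 was left out (adjusted p of 0.0538 to 0.0861). It was also lost with the other CDH1 probe set, which gave a difference of -0.18 (adjusted p = 0.265).

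That other probe set of CDH1 lay close to the floor in AGO2-bound RNA, between 2.38 and 2.70 on the 12 arrays. In total RNA it lay between 3.87 and 5.43. Its lowest value was on total scramble replicate 1, the total RNA array highest in the ACTB control. Changes of this probe set in AGO2-bound RNA are therefore compressed, and the change after miR-130a rests on the first probe set alone.

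EPCAM encodes a cell adhesion protein of the epithelial surface and lies on chr2:47369311-47387020. In AGO2-bound RNA it measured 7.42, 7.35 and 7.33 on the miR-130a arrays, 7.40, 7.18 and 7.24 on the miR-203 arrays, and 7.27, 7.28 and 7.10 on the miR-205 arrays, against 7.98, 8.02 and 7.60 after scramble. All 9 microRNA arrays lay below the 3 scramble arrays. EPCAM fell by 0.50 ± 0.14 after miR-130a (adjusted p = 0.0114), by 0.60 ± 0.14 after miR-203 (adjusted p = 0.0029) and by 0.65 ± 0.14 after miR-205 (adjusted p = 0.00179) on the log2 scale. The 3 microRNAs share the same scramble arrays, and the 3 microRNA groups did not differ from their neighbours in the order of means (adjusted p of 0.593 and 0.761). In total RNA EPCAM lay between 8.87 and 9.33 on all 12 arrays, and no difference from scramble passed the test. Without AGO2-bound scramble replicate 2, the highest scramble array, the fall after miR-130a no longer passed (adjusted p = 0.0578).

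KRT8 and KRT18 encode keratins that pair with each other in the filaments of simple epithelia. KRT8 lies on chr12:52897191-52949860 and overlaps the start of KRT18 at chr12:52948855-52952906. Both genes have many processed pseudogenes, and their probe sets carry the suffix of sets whose probes can match other transcripts, so their values are uncertain in what they count. KRT8 in AGO2-bound RNA measured 9.07, 9.98 and 9.24 after miR-205, against 6.64, 6.64 and 6.54 after scramble. Every miR-205 array lay over 2 log2 units above every scramble array, and KRT8 rose by 2.82 ± 0.20 on the log2 scale, or 7.07-fold (adjusted p = 7.62e-08), rank 102 of 6782 by the size of the change. After miR-130a it measured 6.89, 6.77 and 6.98 and after miR-203 6.74, 7.12 and 7.04. Neither passed the test against scramble, with 95% intervals of the difference of -0.16 to 0.70 and -0.07 to 0.79. KRT8 in total RNA measured 7.71, 7.77 and 7.61 after miR-205, against 7.81, 7.88 and 7.72 after scramble, and these groups overlapped.

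KRT18 in AGO2-bound RNA measured 9.21, 9.56 and 9.37 after miR-203 and 9.51, 9.66 and 9.15 after miR-205, against 8.49, 8.34 and 8.57 after scramble. All 6 of these microRNA arrays lay above the scramble arrays. KRT18 rose by 0.91 ± 0.15 after miR-203 (adjusted p = 0.000225) and by 0.97 ± 0.15 after miR-205 (adjusted p = 0.000148), or 1.88-fold and 1.96-fold. The miR-203 and miR-205 groups did not differ by the test (adjusted p = 0.755), while both lay above miR-130a, at 8.59, 8.63 and 8.72 on its 3 arrays. In total RNA KRT18 lay between 10.11 and 10.74, and no difference from scramble passed the test.

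KRT19, a keratin of simple epithelia on chr17:41523617-41528308, lay at or near the floor in 7 of the 8 groups. The exception was AGO2-bound RNA after miR-203, at 3.43, 3.35 and 2.74, against 2.37 on each of the 3 scramble arrays, which lay at the floor. Without the filter on signal, among 11963 genes, the rise was at least 0.80 ± 0.15 on the log2 scale (adjusted p = 0.00432). In total RNA after miR-203 KRT19 was at the floor on all 3 arrays, as it was after scramble.

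CLDN3 and CLDN4 encode claudins, the strand-forming proteins of tight junctions. The CLDN3 probe set carries the same suffix as those of KRT8 and KRT18, so other transcripts may add to its values too. Both genes lie on chromosome 7, CLDN3 at chr7:73768997-73770270 and CLDN4 at chr7:73830996-73832690. CLDN3 in AGO2-bound RNA measured 7.37, 7.88 and 7.31 after miR-203, against 5.10, 4.94 and 5.43 after scramble. The lowest miR-203 array lay well above the highest scramble array, and CLDN3 rose by 2.36 ± 0.18, or 5.15-fold (adjusted p = 1.66e-07), rank 151 of 6782. After miR-130a it measured 5.23, 5.33 and 5.18 and after miR-205 5.04, 5.09 and 4.71, both overlapping scramble. In total RNA CLDN3 measured 6.46, 6.74 and 6.46 after miR-203, against 6.81, 7.13 and 6.73 after scramble. The difference of -0.33 did not pass the test without the replicate block and passed with it (adjusted p = 0.0429). Same-numbered total RNA arrays of miR-203 and scramble did not deviate together, with correlations of -0.098 to 0.005.

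The other probe set of CLDN3 showed the same rise in AGO2-bound RNA, at 7.25, 7.63 and 6.83 after miR-203, against 4.83, 4.29 and 4.44 after scramble. This is a difference of 2.72 ± 0.21 (adjusted p = 2.51e-07). In total RNA this probe set lay at 6.24, 6.35 and 6.33 after miR-203, against 7.03, 7.34 and 6.98 after scramble. By this probe set CLDN3 fell in total RNA after miR-203, by 0.81 ± 0.12 on the log2 scale (adjusted p = 0.000253). The choice of this probe set was made after its values were seen.

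**Figure D2:**
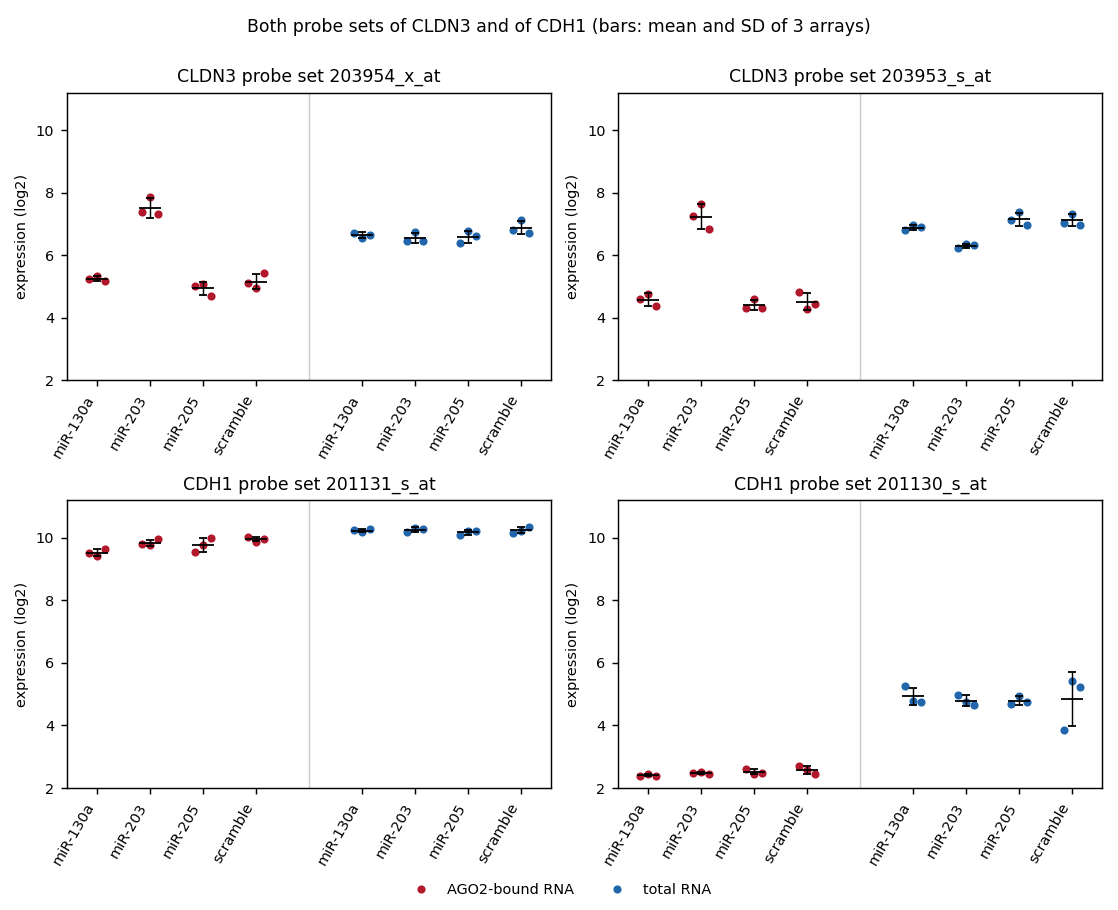
Log2 expression (vertical axis) on every array for both probe sets of CLDN3 and of CDH1 (1 panel each), in AGO2-bound RNA on the left and total RNA on the right, by transfection (horizontal axis), with bars for the mean and SD of 3 arrays. Both CLDN3 probe sets are high in AGO2-bound RNA after miR-203, with means of 7.52 and 7.24, while the second CDH1 probe set lies near the floor in AGO2-bound RNA, between 2.38 and 2.70.

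CLDN4 in AGO2-bound RNA did not follow CLDN3. It measured 6.86, 7.03 and 7.48 after miR-203, against 7.67, 7.85 and 7.68 after scramble. The groups did not overlap, and CLDN4 fell by 0.61 ± 0.19 on the log2 scale (adjusted p = 0.0176). That call was lost without miR-203 replicate 1 or 2 or scramble replicate 2 (adjusted p of 0.0598 to 0.0792), and without the filter on signal (adjusted p = 0.0542). After miR-130a CLDN4 in AGO2-bound RNA measured 7.96, 8.15 and 8.26, a difference of 0.39 that did not pass, but passed with the replicate number as a block (adjusted p = 0.0329). In total RNA CLDN4 measured 6.79, 6.70 and 6.54 after miR-130a, against 6.10, 6.52 and 6.22 after scramble. It rose by 0.40 ± 0.12 (adjusted p = 0.0275). Without total scramble replicate 1 the difference was 0.31 and no longer passed (adjusted p = 0.0944), and the call was also lost without scramble replicate 3 or miR-130a replicate 1 or 2 (adjusted p up to 0.101). It was lost as well without the filter (adjusted p = 0.0622), with arrays centred on their median (0.0552) and with all 24 arrays in the fit (0.104).

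LSR encodes the lipolysis-stimulated lipoprotein receptor, a membrane protein of the corners where 3 epithelial cells meet, and lies on chr19:35249002-35267964. It was the tested gene with a different AGO2-bound level in all 4 transfections. In AGO2-bound RNA it measured 8.97, 9.33 and 8.77 after miR-205, 7.09, 7.48 and 6.57 after miR-203 and 5.62, 5.42 and 5.26 after miR-130a, against 6.28, 5.93 and 6.20 after scramble. No groups overlapped, and each neighbour in the order miR-205, miR-203, scramble, miR-130a differed by the test. LSR rose by 2.88 ± 0.22 after miR-205, or 7.37-fold (adjusted p = 1.31e-07), rank 94 of 6782, and by 0.91 ± 0.22 after miR-203 (adjusted p = 0.00313). It fell by 0.71 ± 0.22 after miR-130a (adjusted p = 0.0184), a call lost without miR-130a replicate 2 or 3 or scramble replicate 1 or 3 (adjusted p of 0.0529 to 0.0682), and without the filter (adjusted p = 0.0665).

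LSR in total RNA moved the other way after miR-205 and miR-203. It measured 6.40, 6.34 and 6.15 after miR-205, 6.51, 6.36 and 6.29 after miR-203 and 6.20, 6.53 and 6.36 after miR-130a, against 6.67, 6.78 and 6.71 after scramble. All 9 microRNA arrays lay below the scramble arrays. LSR fell by 0.43 ± 0.10 after miR-205 (adjusted p = 0.0097), by 0.34 ± 0.10 after miR-203 (adjusted p = 0.0209) and by 0.36 ± 0.10 after miR-130a (adjusted p = 0.0212). These 3 calls share the scramble arrays, and with all 24 arrays in the fit they were lost (adjusted p of 0.114, 0.158 and 0.171). Without total scramble replicate 1 the falls were 0.45, 0.36 and 0.38 on the log2 scale and still passed. Leaving out total scramble replicate 2 ended the calls after miR-203 and miR-130a (adjusted p of 0.0625 and 0.0641). The call after miR-203 was also lost without miR-203 replicate 2 or 3 (adjusted p up to 0.0719) and with arrays centred on their median (0.0504). That after miR-130a was also lost without miR-130a replicate 1 or 3 or scramble replicate 3 (adjusted p up to 0.0898).

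DSP encodes desmoplakin, which ties keratin filaments to the desmosome, and lies on chr6:7541671-7586714. In AGO2-bound RNA its arrays were spread widely within groups, at 7.77, 8.21 and 8.36 after miR-205, 7.06, 7.06 and 7.45 after miR-203 and 6.35, 6.55 and 7.10 after miR-130a, against 6.87, 7.32 and 7.94 after scramble. Array number 3 was the highest in all 4 groups, and the miR-205 and miR-130a arrays overlapped those of scramble. Between arrays of the same number, miR-205 lay above scramble and miR-130a below it each time. DSP rose by 0.74 ± 0.26 after miR-205 (adjusted p = 0.035) and fell by 0.71 ± 0.26 after miR-130a (adjusted p = 0.0463). Both calls were lost without the filter (adjusted p of 0.138 and 0.149) and without some single arrays. After miR-205 these were miR-205 replicates 2 and 3 and scramble replicates 1 and 2 (difference of 0.48 to 0.71, adjusted p up to 0.163). After miR-130a they were miR-130a replicates 1 and 2, scramble replicates 2 and 3, miR-203 replicates 1 and 2 and miR-205 replicate 2 (difference of -0.74 to -0.43, adjusted p up to 0.21). The call after miR-130a was lost as well with arrays centred (adjusted p = 0.0545) and with the second probe set of genes that have one (0.0514). It was kept under 11 of 21 alternatives, with adjusted p as low as 0.000756. The call after miR-205 was kept under 16 of 21, with adjusted p as low as 0.000447. In total RNA DSP measured 8.86, 9.09 and 8.92 after miR-203, against 8.77, 8.40 and 8.69 after scramble. These groups did not overlap, and DSP rose by 0.34 ± 0.10 (adjusted p = 0.0224). That call was lost with all 24 arrays in the fit (adjusted p = 0.244), without miR-203 replicate 2, and without scramble replicate 2, where the difference was 0.23 (adjusted p = 0.0869).

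SNAI2, on chromosome 8, encodes the EMT transcription factor SLUG. Its transcript was dim in total RNA, at 2.39 to 3.48 on the 12 arrays, and far higher in AGO2-bound RNA. AGO2-bound RNA gave 6.28, 5.69 and 5.93 on the miR-130a arrays, 6.42, 6.48 and 6.51 on the miR-203 arrays and 5.89, 5.27 and 5.58 on the miR-205 arrays, against 6.45, 6.88 and 7.02 after scramble. All arrays of miR-205 and of miR-130a lay below those of scramble, and the miR-203 arrays overlapped scramble. SNAI2 fell by 1.20 ± 0.20 after miR-205 (adjusted p = 2e-04) and by 0.82 ± 0.20 after miR-130a (adjusted p = 0.00455). After miR-203 the difference was -0.31, with a 95% interval of -0.74 to 0.11. In total RNA SNAI2 measured 3.48, 3.04 and 3.13 after miR-205, against 3.07, 2.81 and 2.66 after scramble, a difference of 0.37 that did not pass the test (adjusted p = 0.0899). Without total scramble replicate 1 it was 0.48 and passed (adjusted p = 0.0458). Since these values lie close to the floor, changes of SNAI2 in total RNA are compressed.

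**Figure D3:**
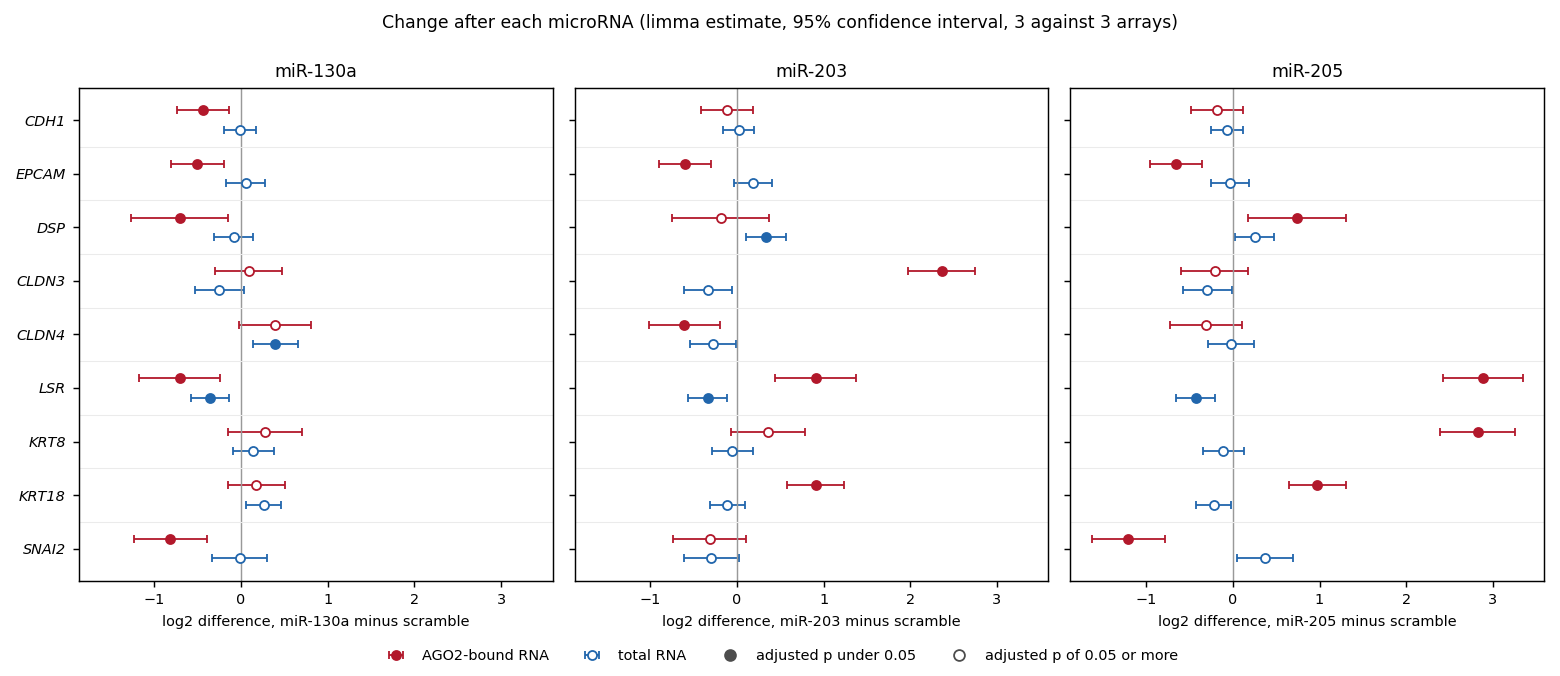
Log2 difference from scramble (horizontal axis) of the 9 tested genes (rows) after each microRNA (1 panel each), in AGO2-bound RNA and in total RNA, with 95% confidence intervals from limma and 3 against 3 arrays. The AGO2-bound values reach 2.88 for LSR and 2.82 for KRT8 after miR-205 and 2.36 for CLDN3 after miR-203, while the total RNA values lie between -0.43 and 0.40.

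The microRNAs were also compared with each other, which leaves the scramble arrays out of the difference. Each of these pairs runs between floor sets that appear to have been normalized apart. The ACTB difference in AGO2-bound RNA averaged 2.55 for miR-130a and 2.68 for miR-203, against 3.45 for miR-205. The part of either in the pairs was not tested. In AGO2-bound RNA 5 of 9 genes differed in each of the 3 pairs, beside 55% of all tested genes between miR-130a and miR-203, 49.1% between miR-130a and miR-205 and 53.4% between miR-203 and miR-205. LSR differed in all 3 pairs, by -1.62 ± 0.22 between miR-130a and miR-203, by -3.59 ± 0.22 between miR-130a and miR-205 and by -1.98 ± 0.22 between miR-203 and miR-205 (log2, SE). After miR-203, KRT8 differed from its level after miR-205 by -2.46 ± 0.20 and CLDN3 by 2.57 ± 0.18. CLDN4 was 1.00 ± 0.19 higher after miR-130a than after miR-203 (adjusted p = 0.000592) and 0.70 ± 0.19 higher than after miR-205 (adjusted p = 0.00757). DSP was lower than after miR-205 after both others, by differences of -1.45 ± 0.26 (miR-130a) and -0.92 ± 0.26 (miR-203). SNAI2 was 0.89 ± 0.20 higher after miR-203 than after miR-205 (adjusted p = 0.00161). Its difference of -0.50 ± 0.20 between miR-130a and miR-203 (adjusted p = 0.0423) was lost without any of the 3 miR-203 arrays, miR-130a replicate 2 or 3 or scramble replicate 2 (adjusted p of 0.0533 to 0.173), and without the filter (0.104). Since same-numbered AGO2-bound arrays of the 3 microRNAs deviated together, the pairs were also fitted with the replicate number as a block. This made 7 genes differ between miR-130a and miR-203, adding CDH1 (-0.32, adjusted p = 0.0311) and DSP (-0.52, adjusted p = 0.00467).

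In total RNA the pairs differed by less. Of the 9 genes 3 differed between miR-130a and miR-203 (45.2% of all genes), 3 between miR-130a and miR-205 (38.8%) and 1 between miR-203 and miR-205 (41.8%). KRT18 was 0.37 ± 0.09 higher and CLDN4 0.67 ± 0.12 higher after miR-130a than after miR-203, and DSP differed by -0.42 ± 0.10 in the same pair, a call lost with all 24 arrays in the fit (adjusted p = 0.127). The same 3 genes differed in the same directions between miR-130a and miR-205. There the CLDN4 call was lost without miR-130a replicate 1 or miR-205 replicate 3 (adjusted p up to 0.0669), with arrays centred (0.0516) and with all 24 arrays (0.0664). The DSP call was lost without miR-130a replicate 1 or miR-205 replicate 2 or 3 (adjusted p up to 0.0918) and with all 24 arrays (0.253). SNAI2 was lower after miR-203 than after miR-205, by a difference of -0.67 ± 0.15 (adjusted p = 0.0033), between groups near the floor, with 1 miR-203 array at it.

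AGO2-bound and total RNA of the same transfection were set against each other to see which transcripts made up a larger part of the AGO2-bound RNA. Each array received the same mass of RNA, so these are differences in relative abundance and not amounts bound. Probe sets of spiked controls averaged 6.94 to 7.14 over the AGO2-bound groups and 5.82 to 6.02 over the total RNA groups. In every AGO2-bound group this mean rose from replicate 1 to replicate 3, after miR-205 from 6.29 to 7.95. The 3′ to 5′ difference of ACTB was 2.55 to 3.45 in AGO2-bound RNA and 2.07 to 2.24 in total RNA. The part of either control in these results was not tested. SNAI2 and CLDN4 were higher in AGO2-bound RNA in all 4 transfections. CDH1, EPCAM, KRT18 and DSP were lower in all 4. LSR, KRT8 and CLDN3 took a different side in different transfections. All 9 genes passed the test in each transfection, beside 71.6% (miR-130a), 71.9% (miR-203), 72.7% (miR-205) and 72.9% (scramble) of all tested genes.

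SNAI2 lay 3.14 ± 0.18 log2 units above total RNA after miR-130a, 3.92 ± 0.18 above after miR-203, 2.36 ± 0.18 above after miR-205 and 3.94 ± 0.18 above after scramble. The total RNA values of SNAI2 lay near the floor, with 3 of 4 group means under the filter of 2.851. Of its miR-203 arrays 1 lay at the floor, so the differences of SNAI2 from total RNA can be understated. CLDN4 lay 1.12 ± 0.17 to 1.45 ± 0.17 above total RNA. EPCAM lay below total RNA, with differences of -1.67 ± 0.12 (miR-130a), -1.90 ± 0.12 (miR-203) and -1.73 ± 0.12 (miR-205), against -1.11 ± 0.12 after scramble. KRT18 differed by -2.05 ± 0.13 (miR-130a), -0.95 ± 0.13 (miR-203) and -0.77 ± 0.13 (miR-205), against -1.96 ± 0.13 after scramble. DSP differed by -1.87 to -0.76 and CDH1 by -0.71 to -0.29, and for CDH1 after scramble the call was lost with the replicate block (adjusted p = 0.0586) and without AGO2-bound scramble replicate 2 or total scramble replicate 2 or 3 (adjusted p up to 0.117). The other CDH1 probe set was also lower in AGO2-bound RNA in all 4 transfections, by differences of -2.52 to -2.27 that can be understated, since its AGO2-bound values lay near the floor.

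The 3 genes that took different sides are those with the largest changes after a microRNA. KRT8 in AGO2-bound RNA lay above total RNA after miR-205, with a difference of 1.73 ± 0.17, and below it otherwise, at -1.07 ± 0.17 (miR-130a), -0.79 ± 0.17 (miR-203) and -1.20 ± 0.17 (scramble). CLDN3 lay 0.97 ± 0.16 above total RNA after miR-203, and its difference was -1.73 to -1.39 in the other 3 transfections. LSR lay 2.73 ± 0.18 above total RNA after miR-205 and 0.66 ± 0.18 above after miR-203, with differences of -0.93 ± 0.18 after miR-130a and -0.58 ± 0.18 after scramble.

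**Figure D4:**
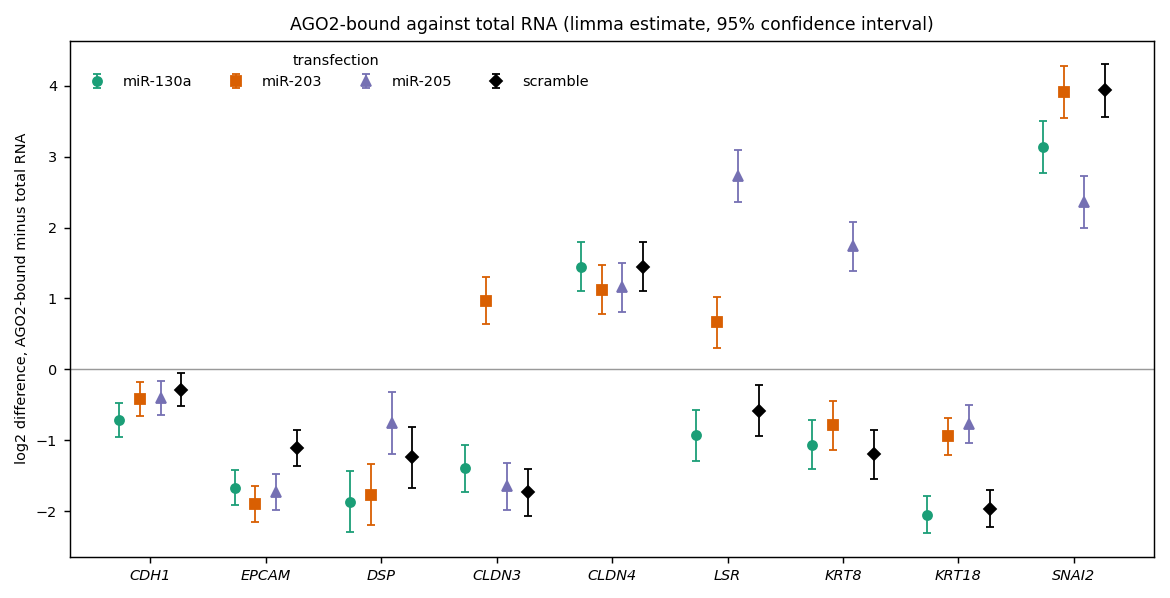
Log2 difference of AGO2-bound minus total RNA (vertical axis) for the 9 tested genes (horizontal axis) in each transfection, with 95% confidence intervals from limma over all 24 arrays. SNAI2 lies at 2.36 to 3.94 in all 4 transfections, KRT8 is above 0 after miR-205 alone (1.73), CLDN3 after miR-203 alone (0.97) and LSR after miR-205 (2.73) and miR-203 (0.66).

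Whether the AGO2-bound change exceeded the total RNA change was tested in a single fit of all 24 arrays. Of the 9 genes 3 passed after miR-130a (34.5% of all tested genes passed), 4 after miR-203 (49.1%) and 5 after miR-205 (42.8%). After miR-205 the AGO2-bound change exceeded that in total RNA by 3.31 ± 0.25 for LSR (9.93-fold, adjusted p = 9.38e-11, rank 81 of 6782), by 2.93 ± 0.24 for KRT8 (7.63-fold, adjusted p = 3.49e-10) and by 1.19 ± 0.18 for KRT18 (adjusted p = 8.66e-06). For SNAI2 it was -1.57 ± 0.25 (adjusted p = 1.79e-05) and for EPCAM -0.61 ± 0.17 (adjusted p = 0.006). After miR-203 the excess was 2.70 ± 0.23 for CLDN3 (6.49-fold, adjusted p = 6.88e-10), 1.25 ± 0.25 for LSR, 1.02 ± 0.18 for KRT18 and -0.78 ± 0.17 for EPCAM. After miR-130a it was -0.80 ± 0.25 for SNAI2 (adjusted p = 0.0156), -0.55 ± 0.17 for EPCAM (adjusted p = 0.015) and -0.43 ± 0.16 for CDH1 (adjusted p = 0.0452). The last was lost when any of 14 single arrays was left out (adjusted p of 0.0503 to 0.11), with arrays centred (0.121) and with the other CDH1 probe set (0.616). That of EPCAM was lost without AGO2-bound scramble replicate 2 (adjusted p = 0.0506), and that of SNAI2 without AGO2-bound miR-130a replicate 2 (adjusted p = 0.0582). DSP did not pass in any of the 3, at -0.62, -0.53 and 0.49, and passed in all 3 with the replicate number as a block (adjusted p of 0.00929, 0.0198 and 0.0337).

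The markers of fibroblasts, which the line should lack, were looked at beside the miR-205 results. The summed log2 level of the 6 fibroblast markers was 16.12 to 16.96 in AGO2-bound RNA after miR-205, against 15.83 to 16.04 after scramble, and 4 of the 6 (COL1A2, DCN, LUM and PDGFRB) lay at the floor on all 12 total RNA arrays. The 5 measured basal markers summed to 12.10 to 12.14 in AGO2-bound RNA after miR-205, against 12.14 to 12.26 after scramble. The luminal markers there summed to 48.74 to 51.35 after miR-205 and to 42.48 to 44.70 after miR-203, against 45.08 to 47.76 after scramble. In total RNA the fibroblast sum was 15.25 to 15.95 after miR-205, overlapping the 15.44 to 15.72 after scramble. The luminal sum in total RNA was 49.17 to 50.12 after miR-205 and 44.55 to 46.22 after miR-203, against 48.67 to 48.97 after scramble. The part of these levels in the results was not tested.

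The genes whose patterns were most like those of the 10 were sought over all tested genes, by Pearson correlation over the 24 arrays after the mean of each kind of RNA was taken out. The arrays fall into groups, so a high value mostly says that the same transfection stands out. LSR was most like ARPC3 (r = 0.981), WBP2 and SNW1, CLDN3 like SIGIRR (r = 0.98), TALDO1 and NIT2, and KRT8 like KLHL22 (r = 0.972), ZNF79 and H2BC3. KRT18 was most like RAB8A (r = 0.941), KRT19 like NPRL2 (0.932), DSP like ZFC3H1 (0.902), EPCAM like CTSC (0.891), CLDN4 like AUNIP (0.872), SNAI2 like SLC39A6 (0.864) and CDH1 like USPL1 (0.801). Among the 10 themselves the highest values were 0.885 for KRT8 and LSR and 0.873 for KRT19 and CLDN3, and the lowest was -0.67 for KRT8 and SNAI2. KRT19 lay at or near the floor outside AGO2-bound RNA after miR-203, so its correlations rest mostly on those arrays. No other member was the nearest gene of a member.

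Around the 10 genes, 8 wider lists were read, with the 10 genes counted where they belong. Over the 57 distinct tested genes of these lists, 10 rose and 16 fell in AGO2-bound RNA after miR-130a, a share of 45.6% beside 38.5% of all tested genes. After miR-203 14 rose and 15 fell, 50.9% beside 51.4% of all, and after miR-205 13 rose and 15 fell, 49.1% beside 44% of all. Nothing is read from the counts below about a list as such. The median difference over all tested genes was -0.05 (miR-130a), -0.09 (miR-203) and -0.06 (miR-205).

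Of 7 tested adherens junction genes 2 fell after miR-130a, 3 rose and 2 fell after miR-203, and 1 rose and 1 fell after miR-205, with list medians of -0.44, -0.12 and -0.19 in AGO2-bound RNA. CTNNA1, the alpha-catenin that links E-cadherin to actin, rose to 10.06, 11.04 and 10.84 after miR-203, against a scramble mean of 8.19 (2.46 ± 0.28, adjusted p = 9.06e-06). VCL, the junction and focal adhesion protein vinculin, fell by 0.78, 0.98 and 0.48 on the log2 scale in the order miR-130a, miR-203, miR-205. JUP, or plakoglobin, which binds cadherins of both junction types, rose by 0.62 ± 0.18 after miR-203 and by 0.64 ± 0.18 after miR-205, and its difference after miR-130a was -0.47 (adjusted p = 0.0538).

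Of 8 tested desmosome genes 2 rose and 2 fell after miR-130a, 3 rose after miR-203, and 3 rose and 1 fell after miR-205, with medians of -0.04, 0.15 and 0.45. PKP3, a plakophilin of the desmosome plaque, rose by 0.52 ± 0.16 after miR-130a, by 1.47 ± 0.16 after miR-203 and by 0.93 ± 0.16 after miR-205. PKP4, a related plakophilin, fell by 0.43 after miR-130a and by 0.50 after miR-205 but rose by 1.28 ± 0.16 after miR-203. DSC2, a desmosomal cadherin, rose by 0.97 ± 0.26 after miR-130a.

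Of 12 tested tight junction genes 2 rose and 2 fell after miR-130a, 3 rose and 5 fell after miR-203, and 3 rose and 2 fell after miR-205, with medians of -0.12, -0.30 and -0.18. CLDN8, another claudin, measured 7.64, 7.96 and 7.50 after miR-205, against a scramble mean of 3.92, and rose by 3.79 ± 0.18 (adjusted p = 1.69e-09). It also rose after miR-130a, by 1.13 ± 0.18. TJP1, the scaffold protein ZO-1, fell by 1.82 after miR-130a, by 1.34 after miR-203 and by 1.38 after miR-205.

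Only 3 of the 18 measured keratins passed the filter, KRT8, KRT18 and KRT10. KRT10, a keratin of the epidermis, fell by 1.01 ± 0.16 after miR-130a and by 1.51 ± 0.16 after miR-205, but rose by 0.87 ± 0.16 after miR-203 (adjusted p = 0.000379). Of the 3 keratins 1 fell after miR-130a, 2 rose after miR-203, and 2 rose and 1 fell after miR-205, with medians of 0.18, 0.87 and 0.97. Of 5 tested genes of EPCAM and its partners 2 fell after each microRNA, with medians of -0.17, -0.11 and -0.26. The tetraspanin CD9 fell by 1.52 ± 0.14 after miR-130a and by 1.16 ± 0.14 after miR-205, and its difference after miR-203 was 0.00 (adjusted p = 0.984).

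Of 15 tested regulators of epithelial identity 4 rose and 4 fell after miR-130a, 4 rose and 5 fell after miR-203, and 4 rose and 4 fell after miR-205, with medians of 0.00, -0.05 and 0.04. KLF5, a Krüppel-like transcription factor of epithelia, rose by 2.96 ± 0.39 after miR-205 and by 1.95 ± 0.39 after miR-130a. RAB25, a Rab GTPase of epithelial membrane traffic, rose by 1.77 ± 0.17 after miR-203, but fell by 0.66 after miR-130a and by 0.90 after miR-205. EHF, an epithelial ETS factor, fell by 1.01 after miR-130a, by 1.5 after miR-203 and by 1.11 after miR-205.

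Only 3 of 10 measured EMT transcription factor genes passed the filter, SNAI2, TCF3 and TWIST1. Beside the falls of SNAI2, TCF3 rose by 0.90 ± 0.22 after miR-130a. Of 6 tested mesenchymal genes 1 rose and 2 fell after miR-130a, 2 fell after miR-203, and 1 rose and 3 fell after miR-205, with medians of -0.07, -0.51 and -0.55. FN1, the matrix protein fibronectin, fell by 1.06 after miR-130a and by 1.06 after miR-205. ACTA2, smooth muscle actin, rose by 1.24 ± 0.18 after miR-130a (adjusted p = 0.000116) but fell by 0.48 after miR-203 and by 0.54 after miR-205. COL1A1, a collagen chain and one of the fibroblast markers above, rose by 0.52 ± 0.13 after miR-205 but fell by 0.44 after miR-130a and by 0.54 after miR-203.

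In total RNA, over the same 57 genes, 9 rose and 8 fell after miR-130a, a share of 29.8% beside 29.3% of all tested genes. After miR-203 5 rose and 13 fell, 31.6% beside 39.6% of all, and after miR-205 6 rose and 6 fell, 21.1% beside 23.5% of all. Of the 12 tight junction genes 4 rose and 3 fell after miR-130a in total RNA. These included CLDN4 and LSR, whose calls were lost with all 24 arrays in the fit. Of the 6 mesenchymal genes 3 rose and 1 fell in the same comparison. Nothing is read from these counts in total RNA about a list as such. OCLN, the tight junction protein occludin, rose there by 0.71 ± 0.13 after miR-130a and by 0.63 ± 0.13 after miR-203, but fell by 0.40 after miR-205. CLDN8 rose in total RNA after miR-130a, by 0.62 ± 0.14 (adjusted p = 0.00696), as it did in AGO2-bound RNA. After miR-205 its total RNA difference was -0.19 and did not pass (adjusted p = 0.378).

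RAB25, raised in AGO2-bound RNA after miR-203, measured 6.57, 6.83 and 6.50 in total RNA after miR-203, against a scramble mean of 7.66, and fell by 1.02 ± 0.09 (adjusted p = 4.76e-06). CTNNA1 fell there by 0.31 ± 0.09 (adjusted p = 0.0218). TJP1 in total RNA rose by 0.47 after miR-130a and by 0.86 after miR-205 but fell by 0.71 after miR-203. VCL, lower in AGO2-bound RNA, rose in total RNA by 0.45 after miR-130a and by 0.44 after miR-203.

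PERP, a desmosome membrane protein, fell by 1.16 ± 0.15 in total RNA after miR-203, and TWIST1, an EMT transcription factor, by 0.45 ± 0.14 (adjusted p = 0.0231). PALS1, a polarity protein at tight junctions, rose there by 0.75 ± 0.12. In AGO2-bound RNA PALS1 fell by 0.68 after miR-203 (adjusted p = 0.00708) and rose by 1.62 after miR-205 (adjusted p = 7.93e-06). CLDN7, which binds EPCAM, fell in total RNA by 0.53 after miR-130a and by 0.50 after miR-203. LIMA1, an actin-binding protein linked to adherens junctions, fell by 0.88 ± 0.14 and PKP4 by 0.54 ± 0.16 after miR-130a. After miR-205 DSC2 rose by 0.83 ± 0.11, and KLF5 rose by 0.75 ± 0.17. ESRP1, a splicing factor of epithelial cells, fell by 0.81 after miR-205, by 0.51 after miR-130a and by 0.46 after miR-203. In AGO2-bound RNA ESRP1 also fell, by 0.97 after miR-205 (adjusted p = 0.000354) and by 0.71 after miR-130a (adjusted p = 0.00415). Its AGO2-bound difference after miR-203 was -0.32 and did not pass (adjusted p = 0.129).

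EHF, lower in AGO2-bound RNA, rose in total RNA by 0.46 after miR-130a and by 0.33 after miR-205. CDS1, an enzyme of phospholipid synthesis, fell in total RNA by 0.59 after miR-130a and rose by 0.44 after miR-203. In AGO2-bound RNA CDS1 fell by 0.93 after miR-203 (adjusted p = 0.00249). ACTA2 rose in total RNA by 0.46 after miR-130a and fell by 0.50 after miR-203 and by 0.44 after miR-205, and COL1A1 fell by 0.54 after miR-130a and by 0.57 after miR-203.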

How the data were processed

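LNCaP cells were measured on 24 Affymetrix arrays, 3 for each of 8 groups. What the authors deposited is a log2 value for each probe set on each array, already summarized; GCRMA, RMA and R 2.9.0 stand in the submitters' processing notes, without an order. Every column was assigned by its sample, with 0 columns left over. Gene names came from the platform's annotation, checked against a reference gene table of GRCh38.p14: 19064 had 1 symbol, 1043 several, 2108 none here and 62 were controls, and 19052 matched the table. No depth applies to arrays, and 3 arrays per group limit the precision. A gene was tested if its probe set averaged at least 2.851, the median over probe sets, and 6782 genes were.

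Differences were fitted with lmFit and eBayes (limma 3.58.1, R 4.3.3), and a gene was called at a Benjamini-Hochberg adjusted p under 0.05 over all tested genes. AGO2-bound and total RNA arrays were fitted apart for comparisons between transfections and together for the rest. The script was also tested on simulated data, with 200 of 6782 genes changed after miR-205. Of 1.5-fold changes it recovered 43.3% in AGO2-bound RNA, 67.2% in total RNA and 20.9% in the excess. For 2-fold changes these shares were 83.6%, 95.5% and 68.7%. Small changes can therefore be missed. The 10 genes, the wider lists and the tests were chosen with earlier results of these data known. Named beyond the 10 are the largest rise and fall of each wider list in each comparison with scramble, among genes whose groups did not overlap, and the genes most like each of the 10.

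Alternatives changed the filter, the probe set, the scaling, the spread estimate, array weights, the arrays fitted, the replicate block and each array in turn. Arrays with the same replicate number deviated together, with correlations of 0.107 to 0.516 (AGO2-bound miR-130a and scramble), 0.162 to 0.577 (miR-203 and scramble) and 0.125 to 0.582 (among the microRNAs), so the numbers pair these arrays by the data, not by a stated design. They did not do so for AGO2-bound miR-205 and scramble (-0.045 to 0.517), for total RNA against scramble, or between kinds of RNA.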

Additional observations from a re-analysis of the deposited data

Results flagged for a closer look

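In 12 cases the change after a microRNA differed between AGO2-bound and total RNA by the test of that difference (limma, log2 excess of the AGO2-bound change). After miR-205 the excess was 3.311 for LSR, 2.931 for KRT8, 1.192 for KRT18, -0.614 for EPCAM and -1.575 for SNAI2. LSR combined a rise in AGO2-bound RNA with a fall in total RNA there. After miR-203 it was 2.698 for CLDN3, 1.245 for LSR, 1.019 for KRT18 and -0.782 for EPCAM. After miR-130a it was -0.426 for CDH1, -0.554 for EPCAM and -0.802 for SNAI2. The CDH1 call was lost when any of 14 single arrays was left out (adjusted p of 0.0503 to 0.11). Total scramble replicate 1 was among them, at -0.38 (adjusted p = 0.102). It was also lost with arrays centred and with the other CDH1 probe set.

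KRT19 lay below the filter on signal and so outside the tests, yet it was above the floor on all 3 AGO2-bound arrays of miR-203 and at the floor on all 3 scramble arrays, a difference of at least 0.802.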

How the results depend on the processing

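Of 4347 results for single genes under the alternatives, 4199 kept their direction and side of the threshold, 91 lost a call, 57 gained one, and in 0 did a called direction turn. Of 91 calls 72 were kept under every alternative run, among them KRT8 and LSR after miR-205, CLDN3 after miR-203, KRT18 after both, EPCAM after miR-203 and miR-205, and SNAI2 after miR-130a and miR-205 in AGO2-bound RNA. The number of the 9 genes called after miR-130a in AGO2-bound RNA was 5, and it was 3 without the filter and 3 with the second probe set, an alternative chosen after seeing the data. In total RNA after miR-130a it was 2, and 1 without the filter, 1 with arrays centred on their median, and 0 with all 24 arrays in the limma fit (1 at an unadjusted p under 0.05). In total RNA after miR-203 it was 2, and 1 with arrays centred and 0 with all 24 arrays (1 unadjusted). In total RNA after miR-205 it was 1, and 2 with trend and robust, 2 with array weights and 0 with all 24 arrays (2 unadjusted). Between miR-130a and miR-205 in total RNA it was 3, and 5 with array weights and 1 with all 24 arrays. Between miR-203 and miR-205 in total RNA it was 1, and 2 with the probe set of largest variance, 2 with the second probe set and 2 with trend and robust.

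Leaving out each array in turn gave 2 to 5 calls after miR-130a, 4 to 6 after miR-203 and 5 to 6 after miR-205 in AGO2-bound RNA, and 0 to 3, 0 to 3 and 1 to 2 in total RNA. Between the microRNAs it gave 4 to 6, 5 to 6 and 5 in AGO2-bound RNA and 3 to 4, 1 to 4 and 1 to 2 in total RNA. AGO2-bound against total RNA gave 9 after each microRNA and 8 to 9 after scramble, and the excess gave 1 to 4, 4 to 5 and 5 to 6. The replicate block changed the calls printed beside the results and 1 more, KRT8 between miR-130a and miR-205 in total RNA (0.25, adjusted p = 0.0479). Same-numbered arrays of those groups correlated at only 0.021 to 0.064. Of all genes called in total RNA after miR-130a, 54.5% were higher, against 44.2% with quantile scaling and 41.8% with arrays centred. With arrays centred the share was also 38.3%, against 52.7%, between miR-130a and miR-203, and 40.2%, against 56.5%, between miR-130a and miR-205 in total RNA. Neither scaling moved the median of all genes by more than 0.094 (log2) in any comparison. The cause of these shifts was not tested. Signal near the floor limits KRT19, SNAI2 and KLF5 in total RNA and the second CDH1 probe set.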
